A study of Mus musculus with 20 samples.

Results

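T cell_2 was 1 of the 18 clusters that the authors named in their single-cell RNA-seq of the mouse kidney, and 1 of 2 clusters with a T cell name. Its cells were chosen by that name alone and numbered 6396 of 113579, or 5.63% of the cells of 18 libraries. A second annotation of the same cells, made together with 2 further libraries, gave each of them a second name from 19 clusters. By the second name 2665 T cell_2 cells (41.7%) were T cell or NK and are called T/NK-named here. Another 2621 cells (41.0%) carried the name PT, PCT or PST, the proximal tubule (PT) clusters, and are called PT-named. The remaining 1110 cells (17.4%) had other names. The second names therefore went against the cluster's T cell name for a large part of its cells. Which of both names describes these cells was not tested, and the cluster is called T cell_2 throughout.

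T cells recognize antigen through a receptor that signals through the CD3 chains, of which Cd3e encodes one, whereas natural killer (NK) cells lack this receptor and kill stressed or infected cells directly. Both lymphocyte types reside in the healthy kidney in small numbers and can enter it after ischemia. PT cells are epithelial cells that reabsorb most of the filtered water and solutes, and they are among the kidney cells most sensitive to ischemia. The level of Cd3e or of any other marker was not analysed here, because the tables used hold cell names and map positions and no expression values.

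Libraries came from kidneys of male C57Bl/6J mice aged 10 to 12 weeks. The 6 control libraries (Control) were compared with ischemia-reperfusion injury (IRI) from bilateral clamping of the renal pedicles for 23 min (IRI short) or 30 min (IRI long), sampled 1, 3 and 14 d later with 2 libraries per ischemia time and day. Sham-operated controls are described for the inhibitor experiment, and whether these 6 were such is not clear from the sources used here. Libraries are named by the prefix of their cell names: Scl and norm1 to norm5 for Control and IRF with a number for IRI, which here are libraries and not genes. They held 2064 to 14320 cells, with 73 to 932 T cell_2 cells each. Among the 6396 T cell_2 cells, 6 barcodes occurred in 2 libraries each (12 cells). Over all cells, 5 of the 6 control libraries (Scl and norm1 to norm4) shared barcodes among themselves more often than with the other libraries, and norm5 had the barcode set of all IRI libraries. For these 5 control libraries the barcode set and the absence of ischemia cannot be told apart, and the norm5 values are therefore given beside the comparisons with Control.

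The second names of T cell_2 cells were led by PT (2588 cells, 40.5%) and T cell (2353 cells, 36.8%). Fewer were named Ribos. (365 cells, 5.71%), NK (312 cells, 4.88%), SMC (279 cells, 4.36%), Macro (156 cells, 2.44%) and Fibro (86 cells, 1.34%). The segment-specific PT names were rare, with 27 PST and 6 PCT cells. Seen from the second annotation, T cell_2 supplied 43.4% of the cells named T cell, 22.9% of those named NK and 24.0% of those named PT in the 18 libraries, but 87.3% of the 418 cells named Ribos. and 26.0% of those named SMC. It supplied only 0.209% of the PST and 0.0858% of the PCT cells. T cell_2 cells made up 0.0378 to 18.8% of the cells named PT in the control libraries, against 35.7 to 74.4% after IRI short and 7.43 to 70.8% after IRI long.

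The neighbouring lymphocyte cluster T cell_1 did not show this split. Of its 4142 cells, 94.6% were T/NK-named and 0.483% were PT-named. Its SMC-named share was like that of T cell_2, at 4.39% (182 cells) against 4.36%. B cell, the cluster of antibody-producing lymphocytes, kept its name in 94.9% of its 2128 cells, and 0.987% of them were PT-named. The PT clusters of the first annotation were PT-named in 96.8% (PT S1) and 87.4% (PT S3) of their cells, so that T cell_2 lay between them and all other clusters. Among the clusters without a PT name, the next highest PT-named share was 12.3%, in the 486 cells of Myofib.

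The make-up of T cell_2 differed between libraries. In Control the PT-named share of T cell_2 cells was 27.4% in norm1, 31.1% in norm2, 22.6% in norm3, 29.6% in norm4 and 24.7% in norm5, but only 2.07% in Scl. In IRI short it was 55.8% at 1 d (IRF2), 44.2% and 55.3% at 3 d (IRF11, IRF3), and 52.9% and 41.5% at 14 d (IRF10, IRF8). In IRI long it was 66.2% and 13.3% at 1 d (IRF1, IRF5), 47.5% and 42.4% at 3 d (IRF4, IRF7), and 31.7% and 38.1% at 14 d (IRF12, IRF9). All 6 IRI short libraries lay above all 6 control libraries, as did 5 of the 6 IRI long libraries. The exception, IRF5, held 16 of the 2621 PT-named cells, and its exact 95% binomial interval ran from 7.82 to 20.7%.

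**Figure D1:**
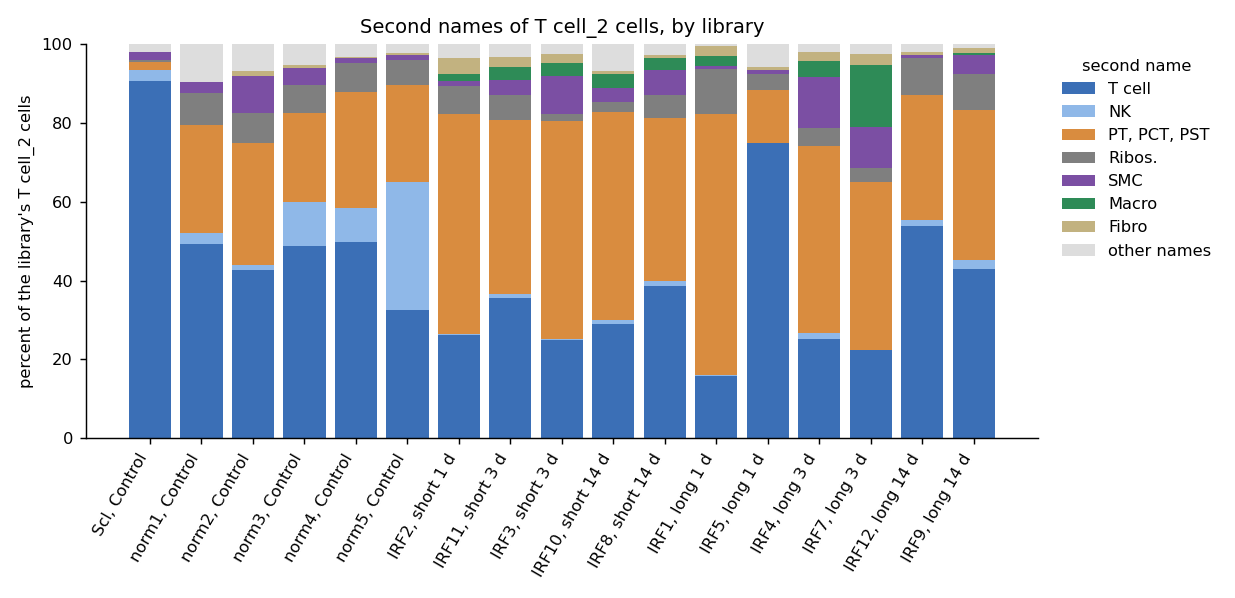
Stacked bars show the second names of the T cell_2 cells of 17 libraries as percent of these cells (y axis, 0 to 100%), with libraries and their groups on the x axis. Cells named PT, PCT or PST made up 41.5 to 55.8% in the 5 IRI short libraries shown and 2.07 to 31.1% in the 6 control libraries.

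Control libraries had a mean PT-named share of 22.9% ± 10.7 (SD, n = 6), IRI short libraries one of 49.0% ± 6.38 (SD, n = 6) and IRI long libraries one of 39.9% ± 17.5 (SD, n = 6). IRI short exceeded Control by 26.1 percentage points, and the two-sided exact permutation test over libraries gave p = 0.00216, the smallest it can give, with an adjusted p of 0.0346 over 16 tests. Leaving out any single library kept this difference between 21.9 and 27.7 points, and it was 24.3 points against norm5 alone, where a test of 6 libraries against 1 cannot pass the threshold. IRI long exceeded Control by 17.0 points, which did not pass (exact permutation p = 0.0693, adjusted p = 0.185), and by 22.3 points without IRF5 (adjusted p = 0.0173, exact permutation test). IRI long and IRI short differed by -9.08 points (exact permutation p = 0.324, adjusted p = 0.652), less than the spread between the IRI long libraries. At 1 d the share was 44.9% ± 22.9 (SD, n = 4) and at 3 and 14 d together 44.2% ± 7.67 (SD, n = 8), a difference of 0.678 points (exact permutation p = 0.902).

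The PT-named share was also set against the PT fraction of the library, the percent of its cells in PT S1 and PT S3. This fraction was 30.3 to 68.1% in Control and 4.63 to 17.5% in IRI, without overlap; its part in the difference of the PT-named share was not tested. Since Control and IRI form separate clusters, no pooled correlation was computed. Within the 6 control libraries Pearson's r was -0.42 (exact permutation p = 0.478) and Spearman's rho -0.14 (exact permutation p = 0.803). It turned to 0.27 without Scl and norm2, the 2 libraries farthest from the median PT fraction. The sign rested on Scl: r was 0.65 without Scl and -0.78 without norm2. Within the 12 IRI libraries r was 0.31 (permutation p = 0.327) and rho 0.31 (permutation p = 0.318), and r was 0.09 without the 2 farthest libraries. With the PT fraction taken per cell outside the immune clusters, r was -0.07 and rho -0.08 in the same libraries (permutation p = 0.819 and 0.817), of the opposite sign. Neither relation passed after adjustment over both (adjusted p = 0.478 each).

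**Figure D2:**
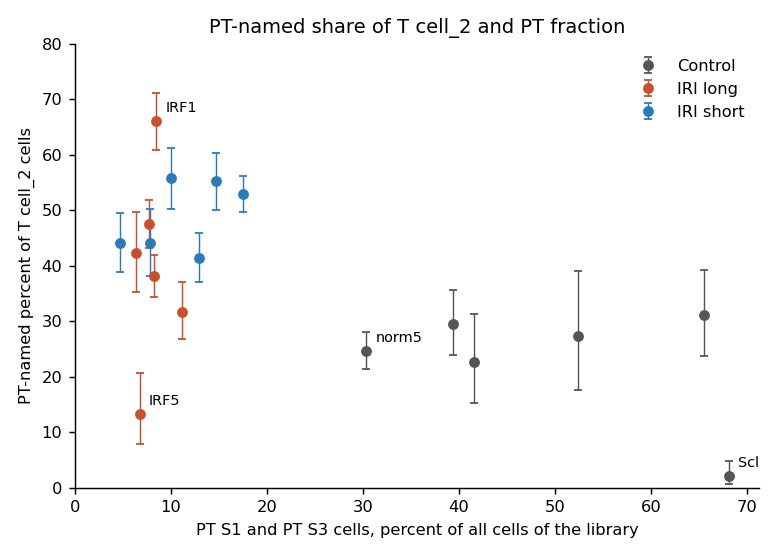
Points are libraries, with the PT S1 and PT S3 percent of all cells on the x axis, the PT-named percent of T cell_2 cells on the y axis and exact 95% binomial intervals as bars. Control lies at 30.3 to 68.1% on the x axis and IRI at 4.63 to 17.5%, and Scl (2.07%) and IRF5 (13.3%) have the lowest PT-named shares.

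The 2-dimensional UMAP maps deposited with each annotation placed the T/NK-named and PT-named cells next to each other in the first map and far apart in the second. In the first map the median positions of both classes were 1.95 UMAP units apart, a distance below the 2.81 units between the T/NK-named cells and T cell_1. PT-named cells lay 9.14 units from PT S1 and PT S3 there. In the second map the T/NK-named cells lay 10.7 units from the PT-named cells and 0.658 units from T cell_1, and the PT-named cells 5.21 units from PT S1 and PT S3. UMAP coordinates have no unit of expression, and distances within such a map are only a description.

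The 30 nearest cells of each T cell_2 cell were counted per library. Pooled over all T cell_2 cells, the neighbours in the first map were T cell_2 in 90.7%, T cell_1 in 6.45% and LOH, the loop of Henle cluster, in 1.14%. As means over libraries these were 89.9, 6.61 and 1.54%. T/NK-named cells had 87.2% ± 4.37 (SD, n = 18 libraries) T cell_2 and 11.5% ± 4.43 T cell_1 neighbours, and 0.327% ± 0.474 in PT S1 or PT S3. PT-named cells had 92.0% ± 13.9 T cell_2 neighbours, 2.01% ± 2.10 T cell_1 and 3.42% ± 9.85 PT S1 or PT S3. The PT S1 or PT S3 share reached 42.0% in Scl, where T cell_2 neighbours were at 38.7%, and its median over libraries was 0.688%. Both classes were thus embedded in the cluster, but not evenly. Taking T cell_2 neighbours alone, those of T/NK-named cells were T/NK-named in 64.8% ± 5.28 and PT-named in 24.7% ± 3.65, whereas those of PT-named cells were PT-named in 56.7% ± 8.62.

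In all 18 libraries the T/NK-named cells sat lower on the second axis of the first map than the PT-named cells, by 0.993 to 2.71 units in 17 libraries and by 5.17 units in Scl, which had 5 PT-named cells. In the second map the classes hardly mixed: T cell_2 neighbours of T/NK-named cells were T/NK-named in 97.1%, and those of PT-named cells PT-named in 91.9%. Among neighbours from all clusters there, T/NK-named cells had 68.5% T cell_2 and 27.5% T cell_1, and PT-named cells 62.2% T cell_2. Names and maps of an annotation come from the same expression values, so the maps are no independent check of the names.

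**Figure D3:**
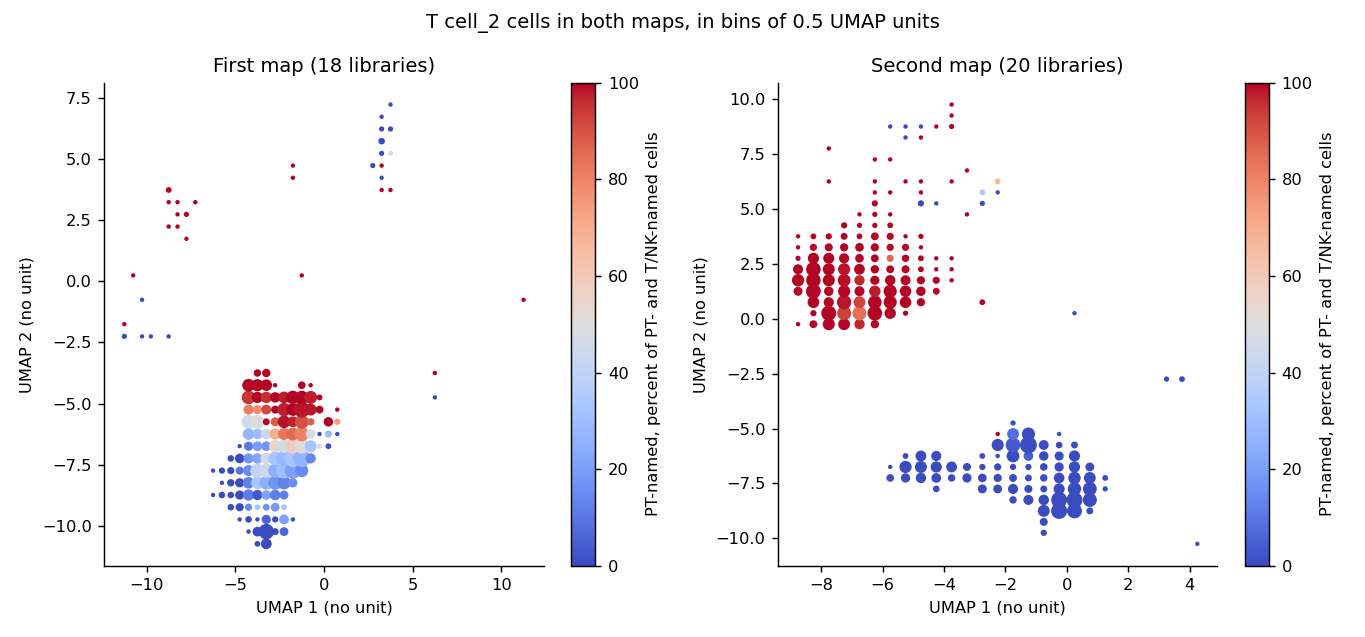
Each point is a bin of 0.5 by 0.5 UMAP units that holds T cell_2 cells, larger for more cells, with the 2 UMAP axes (no unit) as x and y and the first map on the left. Colour gives the PT-named percent of the T/NK-named and PT-named cells of the bin: in the first map it passes from low to high within 1 main cloud, and in the second map T/NK-named and PT-named bins form separate clouds, in both with scattered small bins outside.

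The smaller classes also varied between libraries, and these values were not tested. Of the 312 NK-named cells 69.2% came from norm5, where they made up 32.5% of T cell_2. The other control libraries had 1.35 to 11.3%. In the 12 IRI libraries there were 51 NK-named cells in all, at 0 to 2.31% of T cell_2, and the zeros of IRF5 (0 of 120) and IRF7 (0 of 191) allow shares of up to 2.50% and 1.57%.

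Macro-named cells, with the name of phagocytes that clear debris, were absent from the T cell_2 cells of Control (0 of 1490, which allows up to 0.201%). They were found in 10 of the 12 IRI libraries, at up to 15.7% in IRF7 and at most 4.35% in the others. The 0 in IRF5 and the 0 in IRF12 allow up to 2.50% and 0.898%. Among all cells, the Macro cluster of the first annotation was itself small in Control, with 7 to 67 cells per library. After IRI it had 295 to 1107 cells per library. Its part in the Macro-named values was not tested. SMC-named cells made up 0.593 to 1.19% of T cell_2 at 1 d, 3.80 to 12.8% at 3 d and 0.898 to 6.37% at 14 d, against 1.20 to 9.46% in Control. The groups at 1 d and 3 d did not overlap, while Control overlapped with 3 d. The share of SMC-named cells among all cells was not computed by library, so these values cannot be set against it. Ribos.-named cells were present in all 18 libraries, at 0.413% in Scl and 1.84 to 11.6% in the others.

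As a fraction of all cells, T cell_2 was low in some control libraries and at 1 d after IRI, and higher at 3 and 14 d. In Control it was 1.69% in Scl, 1.85% in norm1, 2.24% in norm2, 5.06% in norm3, 6.09% in norm4 and 9.98% in norm5. In IRI short it was 3.55% (IRF2) at 1 d, 8.37% (IRF11) and 12.8% (IRF3) at 3 d, and 8.54% (IRF10) and 10.8% (IRF8) at 14 d. In IRI long it was 5.52% (IRF1) and 1.53% (IRF5) at 1 d, 10.9% (IRF4) and 9.25% (IRF7) at 3 d, and 4.74% (IRF12) and 8.96% (IRF9) at 14 d. Control spanned nearly the whole range of the IRI libraries, and norm5 lay above 9 of the 12. Fewer T cells and more cells of other kinds cannot be told apart in a fraction of all cells.

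Control averaged 4.48% ± 3.25 (SD, n = 6), IRI short 7.87% ± 3.85 (SD, n = 6) and IRI long 6.82% ± 3.50 (SD, n = 6). On the logit scale, the log of the odds of a cell being T cell_2, limma with Benjamini-Hochberg adjustment over the 18 clusters gave a change of 0.69 (SE 0.33, adjusted p = 0.0697) for IRI short against Control and of 0.49 (SE 0.33, adjusted p = 0.161) for IRI long against Control. Neither passed, although 66.7% and 83.3% of the clusters were called in these comparisons. Both rested on norm5, without which the changes were 0.91 (adjusted p = 0.0124 in limma) and 0.71 (adjusted p = 0.0358 in limma). For IRI short they rested also on norm4, without which the change was 0.80 (adjusted p = 0.0436 in limma). Against norm5 alone the changes were -0.38 and -0.58 and did not pass (limma adjusted p = 0.456 and 0.243). Per immune cell T cell_2 was lower than in Control after both ischemia times, by -1.23 and -1.80 (limma adjusted p = 0.000587 and 7.08e-06). IRI long differed from IRI short by -0.20 (SE 0.33, limma adjusted p = 0.666, 27.8% of clusters called).

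**Figure D4:**
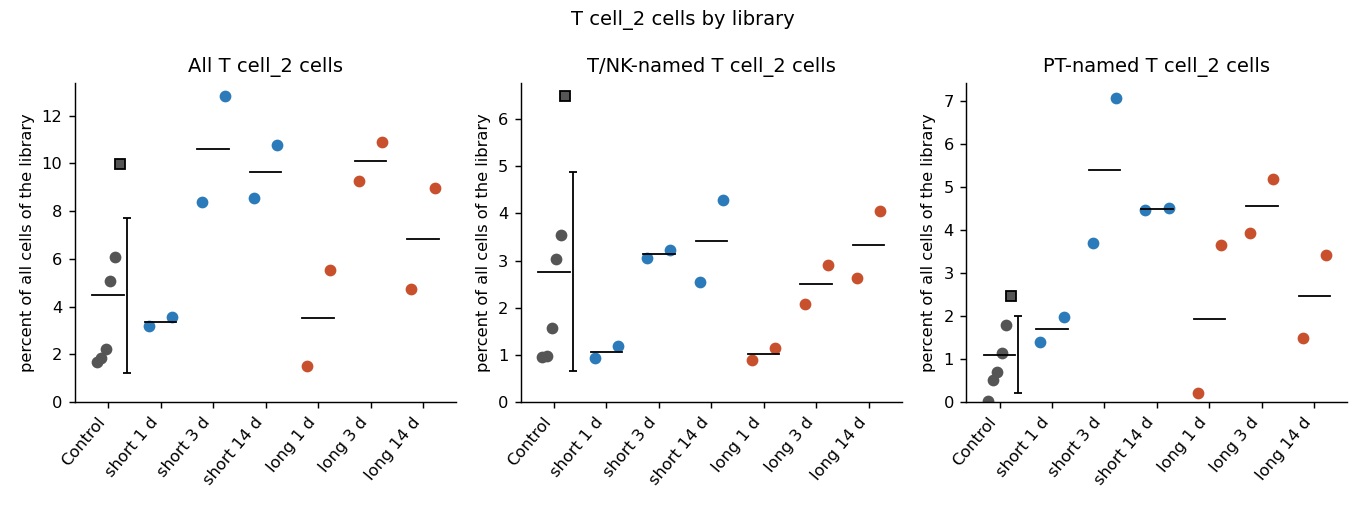
Points are libraries, with the group on the x axis and the percent of all cells of the library on the y axis, for all T cell_2 cells (left), T/NK-named (middle) and PT-named T cell_2 cells (right); lines are group means, the bar beside Control is 1 SD and the square is norm5. T/NK-named cells lie at 0.885 to 1.20% in the 4 libraries at 1 d and at 2.08 to 4.29% in the 8 later IRI libraries.

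With time after IRI, T cell_2 was lower at 1 d (3.45% ± 1.64, SD, n = 4) than at 3 and 14 d together (9.30% ± 2.37, SD, n = 8). The change was -1.12 on the logit scale (SE 0.35, limma adjusted p = 0.0183), in a comparison that called 33.3% of the clusters. T cell_1 moved alike, by -1.24 (SE 0.33, limma adjusted p = 0.00960). Single libraries at 1 d decided whether the T cell_2 change passed: among those reported, it was -1.14 without IRF2 (limma adjusted p = 0.0644) and -0.79 without IRF5 (limma adjusted p = 0.170). Per immune cell it was -0.78 (limma adjusted p = 0.0767).

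The T/NK-named cells were lower at 1 d in every library. They were 0.939 and 1.20% of all cells 1 d after IRI short, 0.885 and 1.15% at 1 d after IRI long, 3.06 and 3.24% at 3 d and 2.56 and 4.29% at 14 d after IRI short, and 2.91 and 2.08% at 3 d and 2.62 and 4.05% at 14 d after IRI long. All 4 libraries at 1 d lay below all 8 later ones, with means of 1.04% ± 0.154 and 3.10% ± 0.751. The difference of -2.06 percentage points had the smallest p that the exact permutation test within ischemia times can give (p = 0.00444, adjusted p = 0.0356, two-sided). This call was lost in 11 of 18 omissions of 1 library (adjusted p up to 0.0711, exact permutation test), while the difference stayed between -2.20 and -1.89 points. All 11 were omissions of IRI libraries, each of which leaves the test fewer arrangements and so a higher smallest p. In Control the T/NK-named cells made up 0.962 to 6.48%, a range that held all 8 later libraries and had IRF1 and IRF2 below it. PT-named cells made up 1.81% ± 1.43 of all cells at 1 d and 4.22% ± 1.59 later, and this difference of -2.41 points did not pass after adjustment (exact permutation p = 0.0444, adjusted p = 0.159).

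Against Control, T/NK-named and PT-named cells did not move alike. T/NK-named cells averaged 2.77% ± 2.11 of Control cells (SD, n = 6), 2.55% ± 1.28 of IRI short cells and 2.28% ± 1.18 of IRI long cells, differences of -0.218 and -0.482 points that were smaller than the spread between libraries (exact permutation p = 0.818 and 0.667). Their sign rested on norm5: without it they were 0.525 and 0.261 points, and against norm5 alone -3.93 and -4.20 points. PT-named cells averaged 1.11% ± 0.893 of Control cells, 3.86% ± 2.04 of IRI short cells and 2.98% ± 1.80 of IRI long cells. The differences were 2.75 points (exact permutation p = 0.0130, adjusted p = 0.0693) and 1.87 points (exact permutation p = 0.0498, adjusted p = 0.159), and neither passed after adjustment over 16 tests. Without IRF5 the first, which does not use it, passed with adjusted p = 0.0427 and the second was 2.43 points (exact permutation test, adjusted p = 0.0427). Against norm5, with 2.46% PT-named cells, the differences were 1.40 and 0.521 points. When T cell_2 was split in the limma fit, the PT-named cells alone rose by 1.68 in IRI short against Control (SE 0.60, limma adjusted p = 0.0177) and the T/NK-named cells had a change of 0.02 (SE 0.31, limma adjusted p = 0.944). The fit of PT-named cells alone was chosen after seeing the data. Its Control mean includes Scl, with 5 PT-named cells (0.0349% of its cells), against 0.506 to 2.46% in the other control libraries. It was not repeated without Scl, so how far the rise rests on that library was not tested.

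At single days the comparisons with Control had 2 libraries against 6. T cell_2 was higher at 3 d after IRI short, by 1.12 on the logit scale (SE 0.47, limma adjusted p = 0.0377, 72.2% of clusters called), and at 3 d after IRI long, by 1.09 (SE 0.47, limma adjusted p = 0.0380, 88.9% of clusters called). Per immune cell the direction turned, with changes of -0.98 and -1.27 (limma adjusted p = 0.0320 and 0.00814), and the exact permutation test of the mean percents did not pass (p = 0.0714 for both). T/NK-named cells alone had changes of 0.37 and 0.12 at 3 d, which did not pass (limma adjusted p = 0.432 and 0.782), while PT-named cells alone rose by 2.12 and 1.98 (limma adjusted p = 0.0338 and 0.0403). The PT-named fit, chosen after seeing the data, includes Scl with its 5 PT-named cells in Control and was not repeated without it. Against norm5 alone the changes of T cell_2 were 0.04 and 0.01 (limma adjusted p = 0.931 and 0.985). At 14 d the changes were 1.03 after IRI short (limma adjusted p = 0.0597, 55.6% called) and 0.62 after IRI long (limma adjusted p = 0.228, 72.2% called). At 1 d they were -0.08 (limma adjusted p = 0.868, 55.6% called) and -0.22 (limma adjusted p = 0.719, 61.1% called). IRI long and IRI short did not differ beyond the spread at 1 d, 3 d or 14 d (limma adjusted p = 0.946, 0.992 and 0.714, with 5.56%, 0% and 33.3% of clusters called).

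The calls at 3 d also rested on single libraries. For IRI short the change was 0.97 without Scl, 0.98 without norm1, 1.02 without norm2, 1.36 without IRF11 and 0.88 without IRF3, with limma adjusted p between 0.0593 and 0.230. For IRI long it was 0.93, 0.95 and 0.99 without the same control libraries, 1.00 without IRF4 and 1.18 without IRF7, with limma adjusted p between 0.0605 and 0.167.

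Relative to T cell_1, the cluster most like it by name, T cell_2 did not differ in share beyond the spread between libraries. Of both clusters together it made up 57.9% ± 9.46 for Control (SD, n = 6), 61.9% ± 5.40 for IRI short and 62.9% ± 16.1 for IRI long, and none of the 4 comparisons passed (exact permutation p from 0.374 to 0.898). The single libraries ranged from 50.0% (norm3) to 70.0% (norm5) in Control, from 55.3% (IRF8) to 68.2% (IRF3) in IRI short and from 45.6% (IRF5) to 82.6% (IRF1) in IRI long.

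Counting only T/NK-named T cell_2 cells beside T cell_1, the share was 45.8% ± 9.40 for Control, 34.4% ± 1.64 for IRI short and 38.7% ± 4.53 for IRI long. All 6 IRI short libraries (32.9 to 36.4%) lay below all 6 control libraries (37.3 to 60.3%), a difference of -11.4 points (exact permutation p = 0.00216, the smallest possible, adjusted p = 0.00866). The highest control library was norm5 (60.3%), and without it Control averaged 42.9% ± 6.90 (SD, n = 5). Scl and norm2 lay at 50.4% each, and norm1, norm3 and norm4 at 38.8, 37.5 and 37.3%. The difference against norm5 alone was not computed for this share. IRI long did not differ from Control by this test (-7.05 points, exact permutation p = 0.130, adjusted p = 0.173) and exceeded IRI short by 4.33 points (exact permutation p = 0.0278, adjusted p = 0.0444).

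NK-named and T-named cells were not alike in this respect, as the following untested values show. Of the cells with the second name NK, T cell_2 held 61.2% in norm5 and 10.0 to 28.3% in the other control libraries, against 2.38 to 7.50% in IRI short and 0 to 13.4% in IRI long. Of the cells with the second name T cell, it held 39.7 to 58.5% in Control, 38.3 to 43.4% in IRI short and 37.8 to 57.3% in IRI long. The NK-named shares of Control and IRI short did not overlap, whereas the T-named shares did.

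**Figure D5:**
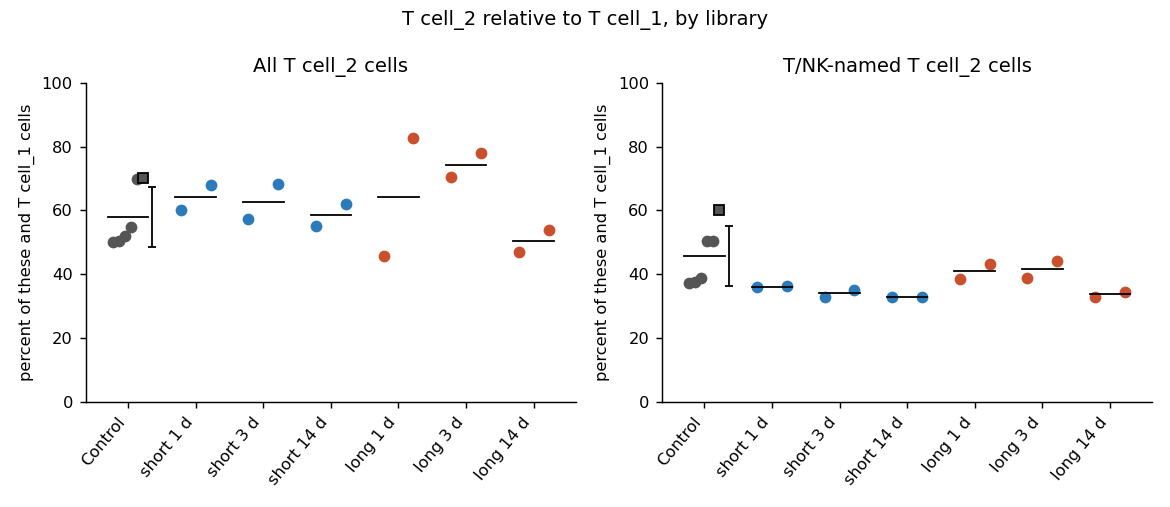
Points are libraries, with the group on the x axis and the percent of T cell_1 and T cell_2 cells that are T cell_2 on the y axis, counting all T cell_2 cells (left) or only the T/NK-named ones (right); lines are group means, the bar beside Control is 1 SD and the square is norm5. On the right the IRI short libraries lie at 32.9 to 36.4%, below the 37.3 to 60.3% of Control.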

How the data were processed

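Per the study's methods, the authors aligned reads of 10X 3′ libraries to mm10 with Cell Ranger, kept cells within limits on gene number and mitochondrial share in Seurat, took out doublet-like cells with DoubletFinder, integrated libraries with LIGER and named its Louvain clusters by hand from marker genes. The deposited tables give each cell a cluster name, a group and 2 UMAP coordinates, which are scores without unit. Per the study, for the second annotation the inhibitor libraries were put through the same kind of cell and doublet filters and integrated with the others by LIGER. The second annotation used here holds 136794 cells, more than the paper gives for that set. Whether the cells of the inhibitor libraries are exactly the filtered ones is therefore not clear. UMI counts were not analysed here, and no gene is named with a value. The T cell_2 cells and all measures were chosen with earlier results of these data known. Clusters are named by a rule: T cell_2, T cell_1 and B cell, the PT clusters, and the 3 most frequent neighbour clusters. The rule also takes second names held by at least 1% of T cell_2 cells. Myofib and the Macro cluster of the first annotation were named after their values were seen.

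Libraries were identified by the prefix of their cell names and assigned to groups by their cells' labels, each as 1 replicate. The values of 1 IRI short library at 1 d entered all tests and group values, but its own are not reported here. Intervals are exact 95% binomial (Clopper-Pearson), and these and the upper limits for 0 cells (3 counts) cover counting error only. Fractions of the 18 clusters, with 0.5 cells added, were logit-transformed and fitted with 1 mean per group in limma (version 3.58.1, R version 4.3.3), at a threshold of 0.05. The fit and the permutation test were tested on simulated data. The 16 permutation tests cover the T/NK-named and PT-named fractions, the PT-named share and the share of T cells in 4 comparisons, and IRI long was permuted against IRI short within days. The share with only T/NK-named cells was an alternative, adjusted over the 16 tests of the measures in alternative form. Neighbours were found with scipy 1.17.1 in python 3.11.15. The alternatives (scales, denominators, tests, neighbour numbers, barcode set, left-out libraries) are given in the closing section. Those chosen after seeing the data were PT-named cells alone in limma and norm5 as the only control in the permutation measures.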

Additional observations from a re-analysis of the deposited data

Results flagged for a closer look

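Scl stood apart from the other control libraries in the PT-named share of T cell_2 cells: 2.07% (exact 95% binomial interval 0.674 to 4.76%), against 22.6 to 31.1% in the other five. Its gap to the nearest library was 0.708 of the range of the group, above Dixon's critical value of 0.625. It was 1 of 15 groups examined, of which chance flags about 1 in 20.

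The fraction of T cell_2 differed between days after IRI, with a change of -1.12 on the logit scale for 1 d against 3 and 14 d (limma adjusted p = 0.0183), and so did that of its T/NK-named cells, by -2.06 percentage points (exact permutation p = 0.00444, adjusted p = 0.0356). The first call was lost without 1 of 3 libraries at 1 d, and the second in 11 of 18 omissions of 1 library (adjusted p up to 0.0711, exact permutation test). Those 11 omissions were of IRI libraries and left the permutation test fewer arrangements.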

How the results depend on the processing

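Over 35 results there were 184 values under planned or added settings and, for 31 of the results, 540 values with 1 library left out, of which 142 and 507 kept the call or moved by less than the spread; a sign was taken as a direction only where a value passed, and 20 and 23 values changed sign without passing. Per immune cell, T cell_2 was lower than Control after IRI short (-1.23) and IRI long (-1.80), at 1 d (-1.83 and -2.25), at 3 d (-0.98 and -1.27) and at 14 d after IRI long (-1.88), all passing in limma, and the 1 d change was -0.78. Immune cells made up 6.11 to 17.8% of the cells in Control, 37.8 to 62.8% after IRI short and 41.7 to 80.6% after IRI long. By the centred log-ratio the 1 d changes passed (-1.17 and -1.20), while those at 3 d were -0.21 and -0.22, not passing. By the arcsine square root IRI short at 14 d passed (0.11). With the barcode set as a term, or against norm5 alone, the changes at 3 d were 0.0449 and 0.0094, and against norm5 IRI long at 1 d passed (-1.30). T/NK-named cells alone changed by 0.37 and 0.12 at 3 d. PT-named cells alone changed by 1.68 in IRI short against Control, and by -1.20 at 1 d against later (limma adjusted p = 0.160). This fit was chosen after seeing the data, and the change against Control was not repeated without Scl, which had 5 PT-named cells. By exact permutation the 3 d differences of 6.10 and 5.60 points did not pass (p = 0.0714 each, smallest possible 0.0357).

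T/NK-named cells per immune cell were lower by -18.1 and -19.8 points than in Control and by -1.74 in IRI long against IRI short, all passing. PT-named cells per 100 cells outside the immune clusters differed by 6.86 and 9.61 from Control and by -8.60 at 1 d against later, all passing. T cell_2 counts as an immune cluster, so this is a ratio to cells that do not include them. These other cells were a smaller part of the libraries after IRI, where the immune clusters were larger. As a percent of all cells the same differences did not pass (exact permutation test, adjusted p = 0.0693, 0.159 and 0.159). Against norm5 alone the T/NK-named differences were -3.93 and -4.20 points, the PT-named ones 1.40 and 0.521, and those in the T cell_2 share of T cells -8.12 and -7.10. With T/NK-named cells only, that share differed by -11.4 and 4.33 points (IRI short against Control, IRI long against IRI short). In the second map T cell_2 neighbours were 68.5% (T/NK-named) and 62.2% (PT-named) of the neighbours from all clusters. Among the nearest T cell_2 cells taken alone, 97.1% and 91.9% had the same class there. Taking 10 or 100 neighbours was tried in the first map only, where it moved the corresponding values by less than 1 SD.

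Leaving out each library in turn gave changes from 0.54 to 0.91 (IRI short against Control), 0.27 to 0.71 (IRI long), -1.45 to -0.79 (1 d against later), 0.88 to 1.36 and 0.93 to 1.30 (3 d) and 0.88 to 1.25 (IRI short 14 d, which passed without norm4 or norm5). T/NK-named cells at 1 d against later ranged from -2.20 to -1.89 points and, with fewer arrangements, missed the threshold in 11 of 18 omissions (highest adjusted p = 0.0711). PT-named cells ranged from 2.11 to 3.24 (IRI short, passing in 2 of 18 omissions, that of IRF5 among them) and 1.43 to 2.43 points (IRI long) against Control, and the PT-named share in IRI long from 11.7 to 22.3 points. The cause of the other changes was not tested. No paired analysis was possible because the cell names carry no sample number of the sample list. The number of libraries, 2 per IRI group and day, limits all tests.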

Other observations

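In the second map, PT-named cells were also looked up by place: those whose 30 nearest cells from other libraries were mostly T cell_2. Of such cells 77.0 to 96.8% were T cell_2 themselves in the IRI libraries other than IRF5, where 32.5% of 40 cells were. In Control 92.6% of 108 cells were in norm5, 36.7 to 71.0% in norm1 to norm4, and 0.680% of 294 cells in Scl, where 288 of them were PT S1 or PT S3. These values were not tested.

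The inhibitor libraries, 1 per treatment, have only second names, so their T cell_2 cells are not known. At 14 d after IRI long with daily VX765 (100 mg/kg), 2.63% of 10610 cells were named T cell and 0.443% NK, and with Liproxstatin (10 mg/kg) 2.52% of 12605 cells were T cell and 0.698% NK. Both IRI long libraries at 14 d had 6.75 and 9.95% T cell and 1.15 and 1.55% NK. Per the study's methods the inhibitors were given in a second set of experiments, and no library is labelled as vehicle-treated. PT-named cells made up 58.8% with VX765 and 82.6% with Liproxstatin, against 5.11 and 11.2% in the IRI long libraries at 14 d. Fewer T cells and more PT-named cells cannot be told apart in these percents. These values have no replicates and were not tested.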
